A study of Mus musculus with 7 samples.

Results

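Apoptosis and necroptosis genes were followed in quiescent satellite cells, the resident muscle stem cells found under the basement membrane of each fibre. The genes were taken by symbol from the array annotation: members of the BCL2 family, caspases, BIRC inhibitors of apoptosis and other named regulators such as Fadd, Cflar, Ripk3 and Mlkl. By this rule 34 genes were found among the 13287 genes with a probe set of their own, and each was represented by its brightest probe set. Bax, Bcl2, Bcl2l10, Bcl2l14, Bcl2l15, Casp1, Ripk1 and Tradd were not analysed here. The copies Bcl2a1a, Bcl2a1b, Bcl2a1c and Bcl2a1d share 3 probe sets, with log2 values between 4.42 and 5.20 on all 7 arrays, which cannot be given to any single copy.

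Cells of Tg:Pax7-nGFP mice, whose nuclear GFP follows the Pax7 gene, were isolated by FACS from limb muscles, and RNA was amplified and hybridised to GeneChip Mouse Gene 1.0 ST arrays. Mice of 8 to 12 weeks gave 2 arrays at 2 days after death (D2PM) and 3 arrays at 4 days after death (D4PM), and living mice gave 2 arrays. The living mice are called old here, since labels and methods put their age at 24 to 26 months, but the title of the series calls them young adult and its design text says 24 to 26 weeks. No array of young living cells was analysed here, so the effects of death and of age cannot be told apart in any comparison with old cells. All groups carried the transgene, and sorting on GFP after death kept only cells that still held the protein. Whether replicate arrays stand for different mice is not given in the sources used here, so the p-values reflect array-to-array spread that may be technical, and the small number of arrays limits the precision.

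Values are log2 expression values normalised by RMA (robust multi-array average), so a difference of 1 is a doubling. A filter at the 25th percentile, a mean value of 5.12, left 9944 genes to test, and these included 31 of the 34 death genes. Groups were compared with limma in a single fit of the 3 groups, and a gene was called where its Benjamini-Hochberg adjusted p over all 9944 genes was under 0.05. The post-mortem value is the mean of D2PM and D4PM. A gene is said to rise or fall where it was higher or lower in post-mortem than in old cells. The satellite cell gene Pax7 lay between 10.17 and 10.52 on the post-mortem arrays and was at 10.26 and 9.87 on the old ones, and the mean of 14 satellite cell markers was between 9.65 and 9.91 on every array. Of these 14 markers 5 were called higher and 2 lower post mortem, among them Heyl, a target of Notch (0.81), and the adhesion molecule Vcam1 (-0.73). Markers of other cells moved with the groups too. Of 19 endothelial markers 13 were called higher post mortem, with list means of 6.73 to 7.31 on the post-mortem arrays against 6.42 and 5.77 on the old arrays. Of 13 myofibre markers tested 11 were called higher. The mean of 14 such markers, those below the filter included, was 7.83 to 8.15 on the post-mortem arrays against 7.16 and 6.84 on the old arrays. The part of these cells in the results was not tested, and in RNA from a sorted population fewer cells of a type and less RNA per cell cannot be told apart.

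In the mitochondrial pathway of apoptosis, BAX, BAK and BOK open pores in the outer mitochondrial membrane, BCL2-like guardians hold them back, and BH3-only proteins set them free. Released cytochrome c joins APAF1 in the apoptosome, which activates caspase 9 and through it the executioner caspases, and the IAP (inhibitor of apoptosis) proteins oppose caspases. In the second route, death receptors such as FAS and the TNF receptor recruit FADD and caspase 8, with CFLAR as the inhibitor, and where caspase 8 is blocked RIPK1 and RIPK3 can direct MLKL to rupture the membrane in necroptosis. Caspase 11, the product of mouse Casp4, belongs to another route, pyroptosis, in which it senses cytosolic lipopolysaccharide.

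The stretches before the start of Casp4 and Bak1 are shown because these genes had the largest fall and the largest rise described below. They are the 250 bases before the start in assembly GRCm38.p6, from the RefSeq promoter table, written 5′ to 3′ on the strand of the gene: Casp4 at chr9:5308599-5308848 on the plus strand and Bak1 at chr17:27028628-27028877 on the minus strand. Where the table holds several starts of a gene, as for Casp4, the first is given. Capitals mark matches to the NF-kB consensus.
Casp4: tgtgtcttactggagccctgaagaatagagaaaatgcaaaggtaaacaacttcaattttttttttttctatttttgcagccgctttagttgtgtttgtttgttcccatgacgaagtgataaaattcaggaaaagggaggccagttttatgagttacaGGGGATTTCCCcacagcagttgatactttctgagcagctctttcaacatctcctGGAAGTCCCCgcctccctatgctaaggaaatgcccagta
Bak1: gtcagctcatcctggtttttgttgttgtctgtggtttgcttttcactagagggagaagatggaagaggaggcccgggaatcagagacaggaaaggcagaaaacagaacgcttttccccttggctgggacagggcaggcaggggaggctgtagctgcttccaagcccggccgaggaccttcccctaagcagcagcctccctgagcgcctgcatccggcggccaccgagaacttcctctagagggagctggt

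Both strands were searched for 4 motifs: the NF-kB consensus, the interferon-stimulated response element, the STAT site TTCNNNGAA and the AP-1 site TGANTCA. A promoter could be matched to 31 of the 34 genes, and for some of them, among these Birc2, Birc3 and Mcl1, the annotated gene reaches further upstream than the start in the table. The Casp4 stretch held 3 matches to the NF-kB consensus, of which those at -93 to -84 and -92 to -83 from the start overlap on the plus strand and the last, at -39 to -30, lies on the minus strand. The consensus was found in 7.01% of 27025 promoters of the same length, and Casp4 alone among the 9 death genes called below held it. The other 3 motifs, present in 3.04%, 7.18% and 6.87% of all promoters, were found in 0 of these 9. Over the 31 genes with a promoter, called or not, 3 held the NF-kB consensus. The interferon-stimulated response element was found in 0 of them, the STAT site in 2 and the AP-1 site in 1. G and C made up 41.6% of the Casp4 stretch and 58.4% of that of Bak1 (median over all promoters 52.0%). A match is a string of letters and says nothing of binding.

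Of the 31 death genes tested, 9 were called between post-mortem and old cells, 5 higher and 4 lower, against 29% of all genes tested (14.4% higher and 14.7% lower), so the share of death genes called was the same as that of genes at large. At an unadjusted p under 0.05 the count was 10 of 31, against 40.4% of all genes. Caspase 11 and 3 IAP genes fell, and the pore former Bak1, the BH3-only gene Bad, the adaptor Fadd and the guardians Mcl1 and Bcl2l1 rose. The 5 post-mortem arrays did not overlap the 2 old arrays for 13 of the 31 genes, against 46% of all genes tested. The plot of the called genes by array shows the values behind each call.

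**Figure D1:**
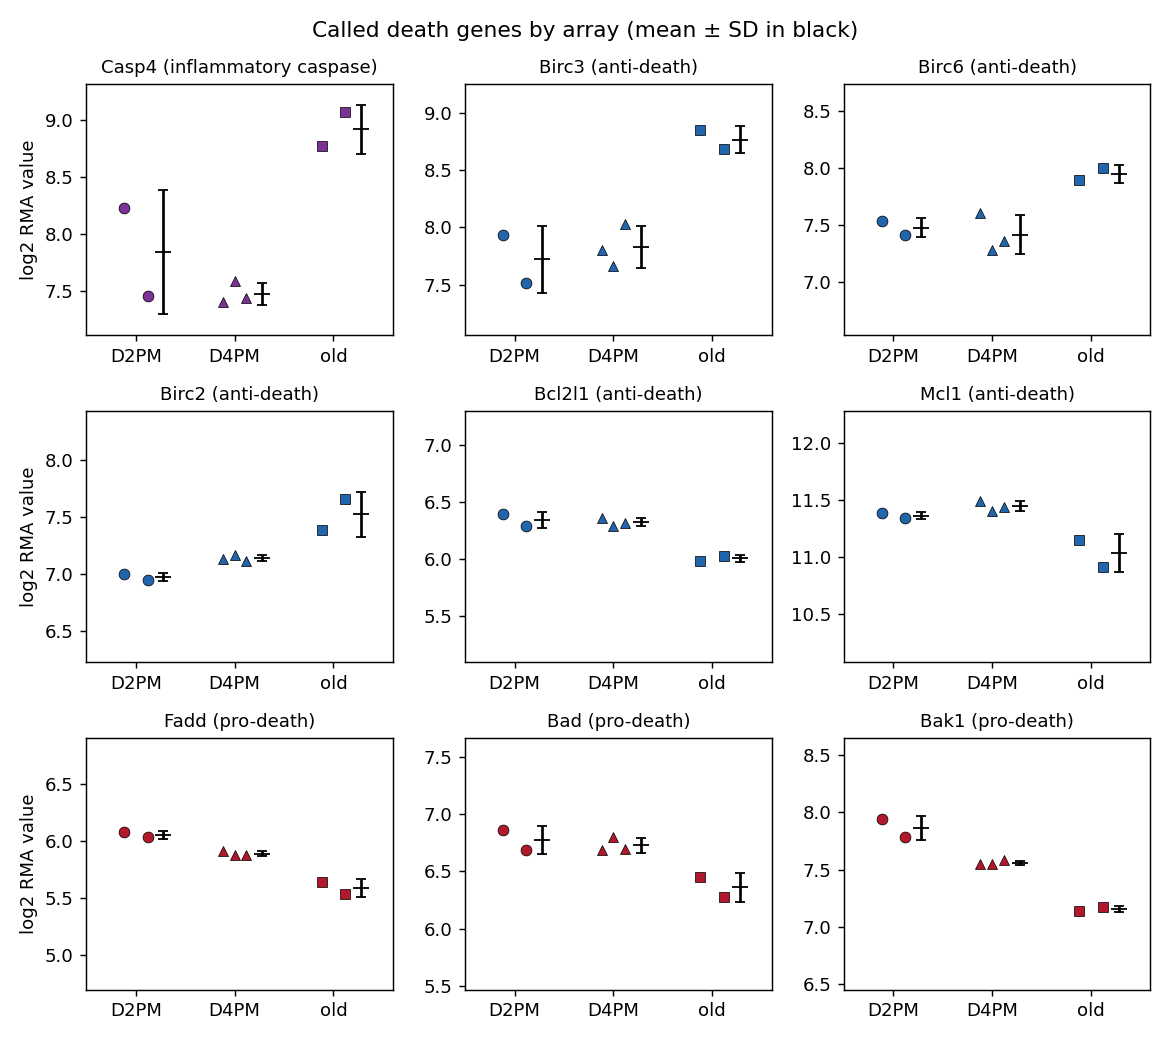
Log2 RMA values (y axis, each panel spanning the same range of log2 units) of the 9 death genes called between post-mortem and old cells, on the D2PM (circles, n = 2), D4PM (triangles, n = 3) and old (squares, n = 2) arrays, with the mean ± SD of each group in black. In every panel the 5 post-mortem arrays lie on one side of both old arrays, below them for Casp4, Birc3, Birc6 and Birc2 and above them for the other 5 genes.

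Casp4 had the largest change of the 31 genes. It read 8.22 and 7.46 at D2PM and 7.40, 7.59 and 7.44 at D4PM, against 8.76 and 9.06 on the old arrays. All post-mortem arrays were below both old ones, and D2PM replicate 1 stood nearest to them. The difference was -1.26 ± 0.18 (log2, standard error; adjusted p = 0.000675, limma), a level of 0.419 times that in old cells, and it was called at D2PM (-1.07, adjusted p = 0.00711) and at D4PM (-1.44, adjusted p = 0.000528). Casp12, the next gene along chromosome 9 and a relative in the inflammatory caspase group, was not called: it read 7.17 and 6.79 at D2PM and 6.83, 6.72 and 6.81 at D4PM, against 6.52 and 6.70 in old cells, a difference of 0.27 (95% interval -0.01 to 0.56, adjusted p = 0.143). Macrophages and monocytes can express Casp4. Of 8 markers of these cells tested 0 were called higher and 1 lower. The mean of 15 markers, those below the filter included, was 5.01 to 5.24 on the post-mortem arrays against 5.60 and 5.07 on the old arrays. The marker called lower was Cd14, with a difference of -1.03. The leukocyte gene Ptprc stayed between 3.89 and 4.34 on all arrays, below the filter. The part of these cells in the value of Casp4 was not tested.

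The IAP family was the group in which most genes fell. Birc3, which encodes the ubiquitin ligase cIAP2 that keeps RIPK1 in its pro-survival state, was at 7.93 and 7.51 at D2PM and at 7.80, 7.66 and 8.03 at D4PM, against 8.85 and 8.68 in old cells. The post-mortem and the old arrays were separated by more than the whole range of the post-mortem arrays. Its difference was -0.99 ± 0.15 (log2, standard error; adjusted p = 0.000746, limma), a level of 0.503 times that in old cells, with similar values at D2PM (-1.04) and D4PM (-0.94). Birc2, which encodes the paralogue cIAP1 and lies next to Birc3 on chromosome 9, read 6.9996 and 6.95 at D2PM and 7.13, 7.17 and 7.12 at D4PM, against 7.38 and 7.66 in old cells (-0.47 ± 0.12, adjusted p = 0.0124). A dimmer probe set of Birc2 gave -0.15, and the mean of both was not called (-0.31, adjusted p = 0.0682, limma). Birc6, which encodes the very large IAP BRUCE, read 7.53 and 7.42 at D2PM and 7.60, 7.28 and 7.36 at D4PM, against 7.89 and 8.001 in old cells (-0.50 ± 0.13, adjusted p = 0.0117). For Birc2 and Birc6 the post-mortem arrays were all below the old ones, and both genes were called lower at each day.

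The other tested members of the IAP family were not called. Xiap, which encodes a direct inhibitor of caspases, differed by 0.22 (95% interval -0.08 to 0.52, adjusted p = 0.257), with all post-mortem arrays (6.32 to 6.79) above the old ones (6.19 and 6.28). Birc5, which encodes survivin, a protein of dividing cells, differed by -0.24 (95% interval -0.55 to 0.07). Birc7 was below the filter, with values between 4.26 and 4.74 on all arrays. In all, 3 of 5 tested IAP genes were called lower and 0 higher, against 14.7% and 14.4% of all genes.

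Of the BCL2 guardians, 2 of 3 tested genes were called higher and 0 lower, against 14.4% and 14.7% of all genes. Mcl1, a short-lived guardian, read 11.38 and 11.34 at D2PM and 11.49, 11.41 and 11.44 at D4PM, against 11.15 and 10.92 in old cells, a difference of 0.37 ± 0.12 (log2, standard error; adjusted p = 0.0325, limma). Bcl2l1, which encodes BCL-XL, read 6.40 and 6.29 at D2PM and 6.36, 6.29 and 6.32 at D4PM, against 5.99 and 6.03 in old cells (0.33 ± 0.11, adjusted p = 0.0432). Both genes had post-mortem arrays within a narrow range above the old ones, and both were the calls that changed most often with the processing. With a second quantile normalisation neither was called (adjusted p = 0.0635 for Mcl1 and 0.0852 for Bcl2l1, limma). Bcl2l2, which encodes BCL-W, differed by 0.10 (95% interval -0.19 to 0.38). Cflar, the inhibitor of caspase 8, differed by -0.31 on its brightest probe set (95% interval -0.64 to 0.02, adjusted p = 0.143), and its other probe sets gave 0.21 and 0.17, so no direction can be given for it.

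Among the genes that promote death, the pore former Bak1 had the largest change. It read 7.94 and 7.79 at D2PM and 7.55, 7.55 and 7.58 at D4PM, against 7.14 and 7.17 in old cells. The 3 groups did not overlap, with D4PM between the others. The difference between post-mortem and old cells was 0.56 ± 0.11 (log2, standard error; adjusted p = 0.00364, limma), a level 1.47 times that in old cells, and it was called at D2PM (0.71, adjusted p = 0.00464) and at D4PM (0.40, adjusted p = 0.0268). Bok, the other tested pore former, differed by 0.06 (95% interval -0.20 to 0.32).

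Bad, a BH3-only gene whose protein is held inactive by growth factor signalling, was called alone among 6 tested BH3-only genes. It read 6.86 and 6.69 at D2PM and 6.69, 6.80 and 6.70 at D4PM, against 6.45 and 6.27 in old cells (0.39 ± 0.12, adjusted p = 0.0274, limma). Its post-mortem arrays were all above the old ones, and with each array centred on its median the adjusted p was 0.0522. The p53 targets Bbc3 (PUMA) and Pmaip1 (NOXA) differed by 0.10 (95% interval -0.15 to 0.35) and 0.04 (95% interval -0.32 to 0.40). Bid, which links caspase 8 to the mitochondria, differed by 0.06, Bik by 0.13 and Bcl2l11 (BIM) by -0.19, and arrays of the groups overlapped for all of these genes.

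Fadd, the adaptor that brings caspase 8 to death receptors, read 6.08 and 6.03 at D2PM and 5.91, 5.87 and 5.87 at D4PM, against 5.64 and 5.53 in old cells. The groups did not overlap and D2PM was highest. The difference was 0.38 ± 0.11 (log2, standard error; adjusted p = 0.0221, limma), called at D2PM (0.46, adjusted p = 0.0286) but not at D4PM (0.30, adjusted p = 0.0839). Casp8, which starts apoptosis at death receptors and restrains necroptosis, read 5.93 and 5.49 at D2PM and 5.61, 5.95 and 5.65 at D4PM, against 5.52 and 5.25 in old cells. It was not called (0.34, 95% interval -0.0045 to 0.68, adjusted p = 0.128), and its groups overlapped. The receptor Fas varied widely among the post-mortem arrays, at 9.11 and 8.31 at D2PM and 8.38, 8.96 and 8.99 at D4PM, against 8.96 and 9.12 in old cells (-0.29, 95% interval -0.77 to 0.18).

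Of the necroptosis genes, Ripk3, the kinase that phosphorylates MLKL, read 4.95 and 5.37 at D2PM and 5.32, 5.36 and 5.37 at D4PM, against 5.31 and 5.34 in old cells. It differed by -0.07 (95% interval -0.36 to 0.22, adjusted p = 0.709), and D2PM replicate 1 alone stood apart. Mlkl, the executioner of necroptosis, was below the filter, at 4.56 and 4.35 at D2PM and 4.49, 4.44 and 4.22 at D4PM, against 4.23 and 4.35 in old cells. The arrays of both genes overlapped between the groups, and both lay near the dim end of the scale, where RMA can compress changes.

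The apoptosome and the remaining caspases showed no call. Apaf1 differed by -0.19, and the IAP antagonists Diablo (SMAC) and Htra2 by -0.30 (95% interval -0.62 to 0.02) and 0.23 (95% interval -0.05 to 0.52). The initiator caspases Casp9 and Casp2 differed by 0.11 and 0.16. Casp6, an executioner, differed by 0.31 (95% interval 0.0012 to 0.61, adjusted p = 0.122). Of the remaining BCL2-related genes, Bcl2l13, a mitochondrial protein with a part in mitophagy, differed by 0.12 and Bcl2l12, whose role is unsettled, by 0.25. Casp14, a caspase of the epidermis, was below the filter, with values between 3.82 and 4.43.

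**Figure D2:**
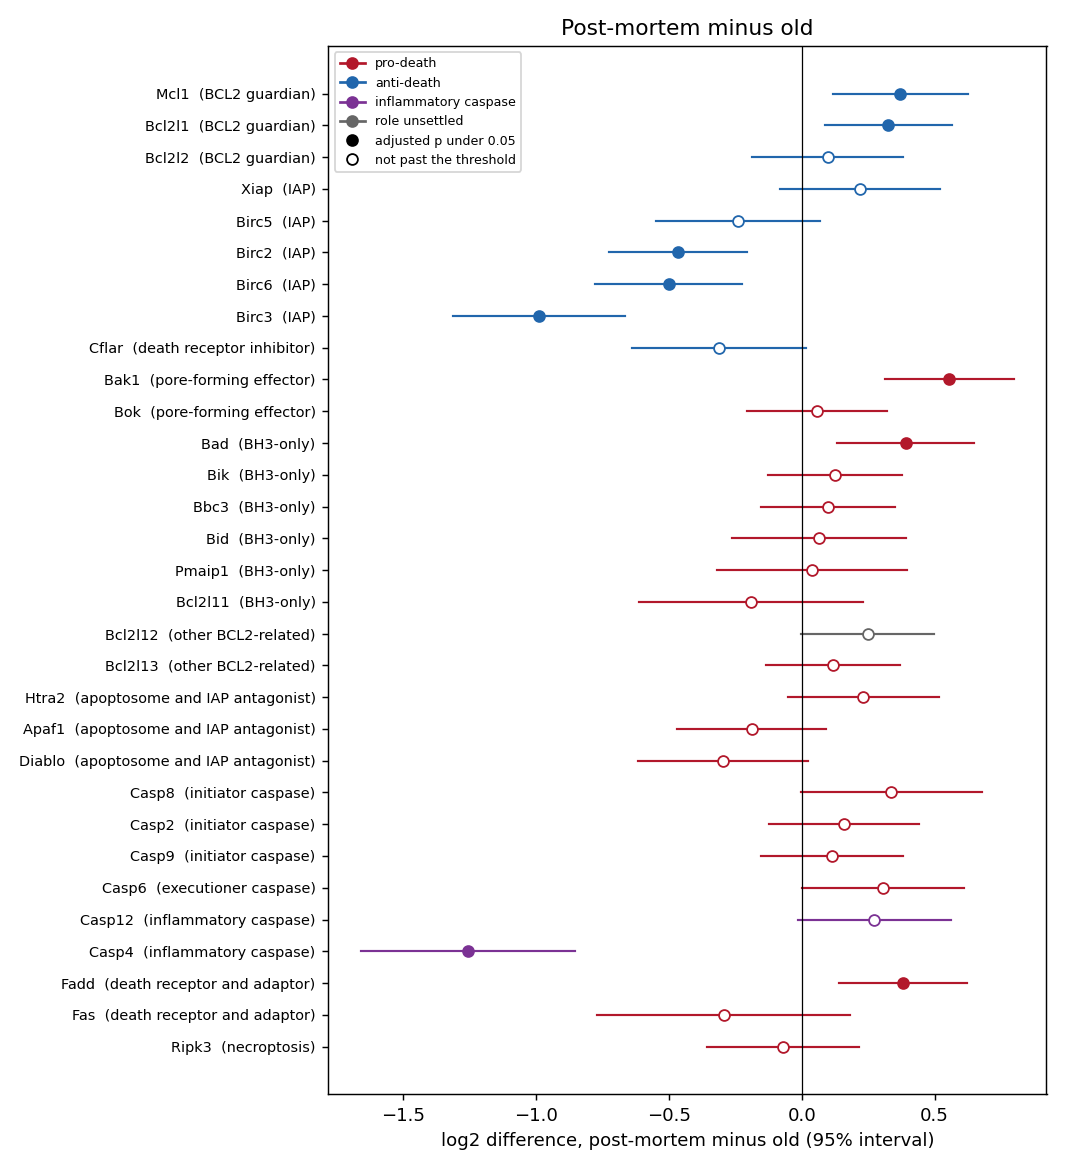
Difference between post-mortem and old cells (x axis, log2, with 95% intervals) for the 31 death genes tested, grouped by class; filled points have an adjusted p under 0.05 (limma). The filled points of Birc3, Birc6 and Birc2 of the IAP family and of Casp4 lie below 0, and those of Mcl1, Bcl2l1, Bak1, Bad and Fadd above it.

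Set side by side, 3 of 19 tested pro-death genes were called higher and 0 lower, and of 9 anti-death genes 2 were higher and 3 lower, against 14.4% of all genes called higher and 14.7% called lower. The pro-death share called higher, 15.8%, was near that background, and no difference between the lists was tested. The inflammatory caspases Casp4 and Casp12 and the unsettled gene Bcl2l12 are in neither list. With the inflammatory caspases added to the pro-death genes, 3 of 21 were called higher and 1, Casp4, lower. Casp8 and Bcl2l13, which have dual roles, were counted as pro-death, and without them 3 of 17 were called higher and 0 lower. The median difference was 0.11 for the pro-death genes (range -0.30 to 0.56, with 14 of 19 above 0) and -0.24 for the anti-death genes (range -0.99 to 0.37), beside 0.0022 for all genes tested. The anti-death median is the value of Birc5, and with the mean of each gene's probe sets it was 0.02. After each gene was centred on its mean, the median of the pro-death genes was 0.16 and 0.01 at D2PM and 0.02, 0.09 and 0.02 at D4PM, against -0.07 and -0.09 on the old arrays. That of the anti-death genes was -0.09 and -0.09 at D2PM and 0.02, -0.03 and -0.09 at D4PM, against 0.06 and 0.33 in old cells. The post-mortem medians were above both old medians in the pro-death list and below both in the anti-death list, where old replicate 2 lay apart. These medians were not tested. At D2PM 2 pro-death genes were higher and 0 lower, and 0 anti-death genes were higher and 3 lower. At D4PM the counts were 1 and 0 for pro-death genes and 1 and 3 for anti-death genes.

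**Figure D3:**
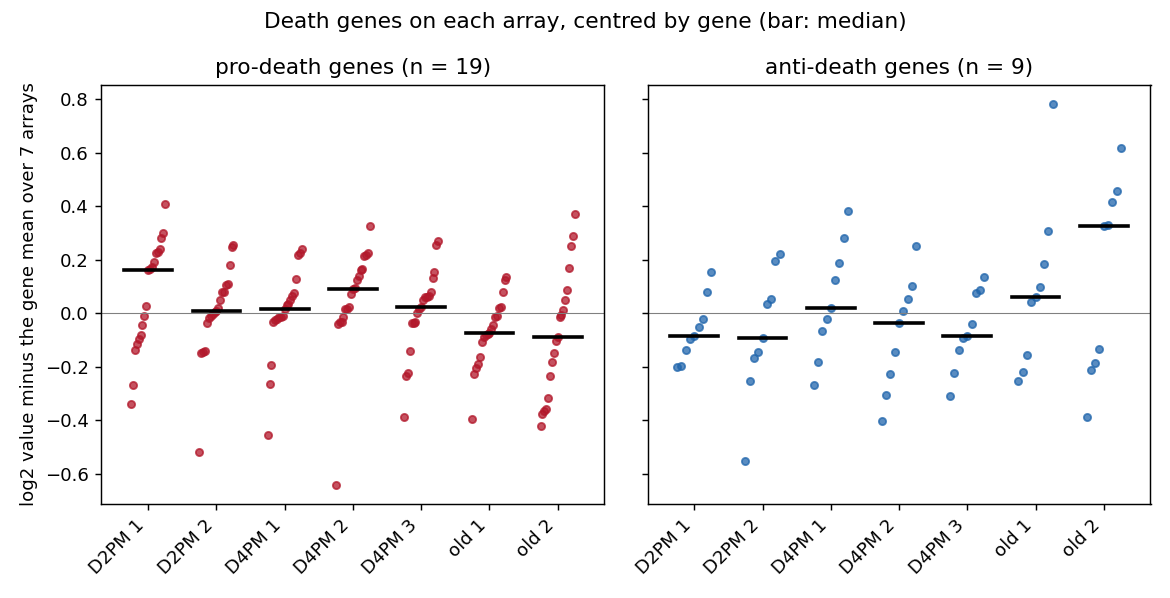
Log2 value of each tested pro-death (left, n = 19) and anti-death (right, n = 9) gene minus its mean over the 7 arrays (y axis), by array (x axis), with the median of each array as a bar. The pro-death medians are 0.01 to 0.16 on the post-mortem arrays and -0.07 and -0.09 on the old arrays, and the anti-death medians are -0.09 to 0.02 on the post-mortem arrays and 0.06 and 0.33 on the old arrays.

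By day, 6 of the 31 death genes were called between D2PM and old cells (2 higher and 4 lower), against 19.4% of all genes (10.3% higher and 9.11% lower), and 6 between D4PM and old cells (2 higher and 4 lower), against 27.9% (12.4% higher and 15.5% lower). Casp4, Birc3, Birc6, Birc2 and Bak1 were called at both days, Fadd at D2PM and Mcl1 at D4PM. These comparisons share the old arrays. With each array centred on its median, 0 death genes were called higher at D4PM, so the calls of Bak1 and Mcl1 there were lost. Bad and Bcl2l1 were called only in the mean of both days: Bad had 0.41 (adjusted p = 0.0591) at D2PM and 0.37 (adjusted p = 0.0509) at D4PM, and Bcl2l1 had 0.34 (adjusted p = 0.0935) at D2PM and 0.32 (adjusted p = 0.0679) at D4PM.

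Between D4PM and D2PM 0 of the 31 death genes were called by limma, against 0.191% of all genes (0.161% higher and 0.0302% lower), and 1 had an unadjusted p under 0.05, against 7.76% of all genes. That gene was Bak1, lower at D4PM by 0.30 (95% interval -0.57 to -0.04, unadjusted p = 0.0273, adjusted p = 0.587). The arrays of the days did not overlap for 8 genes, against 25.3% of all genes. Bbc3 differed by 0.25 (95% interval -0.03 to 0.52), Xiap by 0.27 (95% interval -0.05 to 0.60) and Casp4 by -0.37 (95% interval -0.80 to 0.07), so that differences of these sizes between the days were not settled by 3 arrays against 2. The median was 0.0026 for the pro-death genes and 0.08 for the anti-death genes, beside -0.03 for all genes.

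**Figure D4:**
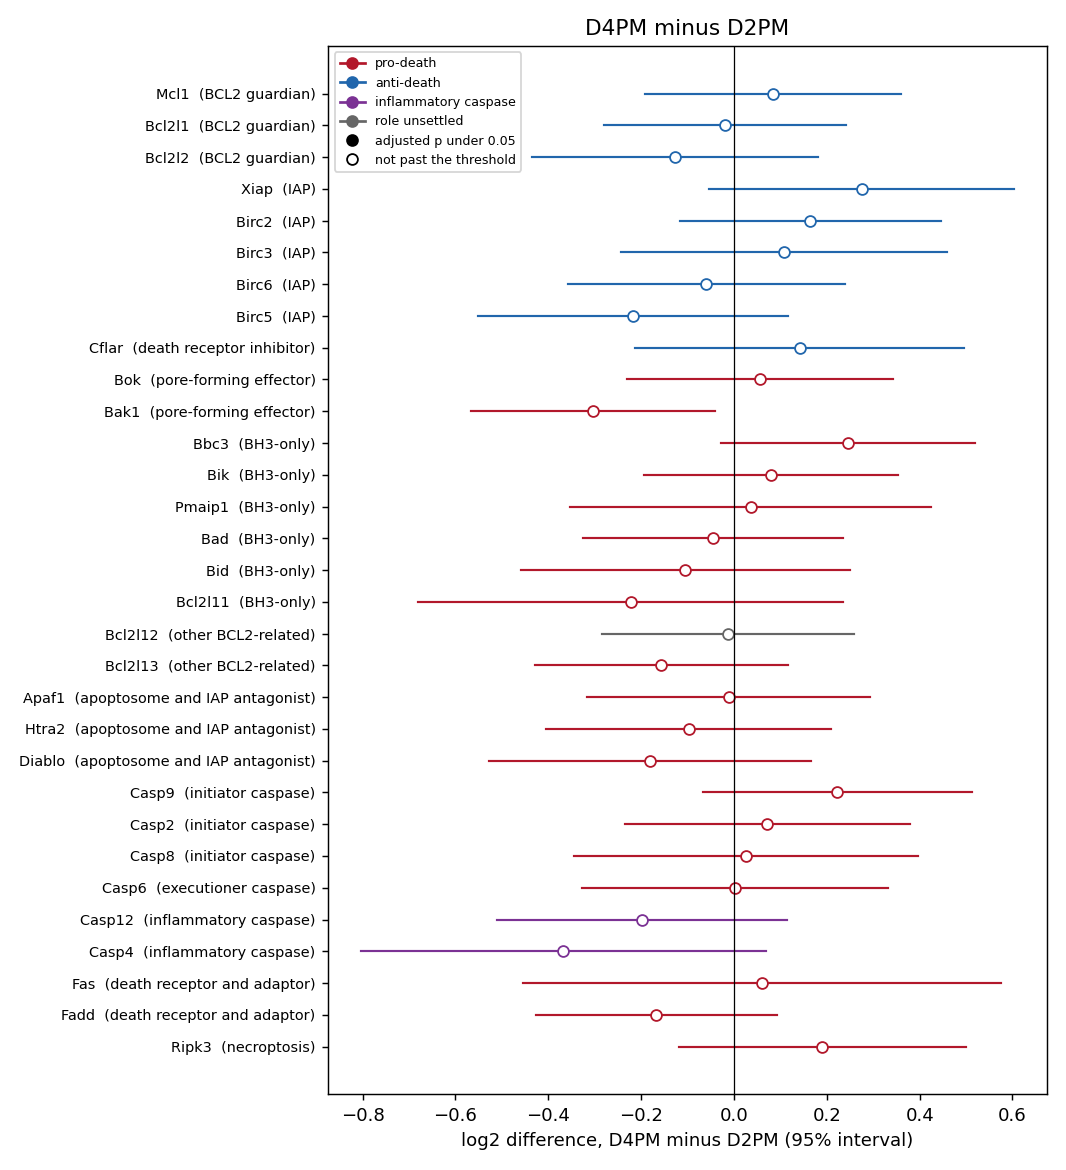
Difference between D4PM and D2PM cells (x axis, log2, with 95% intervals) for the 31 death genes tested, grouped by class. No point is filled, as 0 genes were called, and the interval of Bak1 alone (-0.57 to -0.04) leaves out 0.

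A wider list of death pathway genes that the rule leaves out was taken for context. Of its 41 tested genes, 6 were higher and 7 lower post mortem, a share of 31.7% against 29% of all genes. The list had a median of 0.02. Tnfrsf1a, the receptor for TNF that can signal survival through cIAP1 and cIAP2 or death through FADD, fell most. It read 8.67 and 8.67 at D2PM and 8.46, 8.27 and 8.79 at D4PM, against 9.85 and 9.38 in old cells (-1.02, adjusted p = 0.00108, limma). All post-mortem arrays were below both old ones. Of 11 tested genes of the signalling complex of this receptor, 2 fell, 0 rose and 9 were not called. Rnf31, the ligase HOIP of the linear ubiquitin complex, fell by 0.45 (adjusted p = 0.0226, limma) and Ikbkb, the kinase IKK-beta, by 0.41 (adjusted p = 0.0361), whereas Rbck1 and Sharpin, the partners of HOIP, differed by 0.02 and 0.08. Tnfaip3, at 0.06 in the mean of both days, was called higher at D4PM (0.43, adjusted p = 0.0478, limma) but not at D2PM (-0.32, adjusted p = 0.192). Between the days it differed by 0.76 (adjusted p = 0.101). Ikbkb and Map3k7 of the same complex were called lower at D4PM (-0.45 and -0.40, adjusted p = 0.0345 and 0.035).

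Tnfrsf21, which encodes death receptor 6, fell by 0.85 (adjusted p = 0.00304, limma), Rock1, the kinase that caspases cleave to drive blebbing, by 0.65 (adjusted p = 0.0112), and Ninj1, which breaks the membrane at the end of lytic death, by 0.44 (adjusted p = 0.0183). Higher post mortem were Trp53inp1, a p53-induced gene (1.06, adjusted p = 0.000609), Bnip3, a BH3-like gene of mitophagy induced by low oxygen (0.78, adjusted p = 0.0107), and Bag3, a co-chaperone of stress and survival that muscle fibres also express (0.75, adjusted p = 0.000993). Cradd and Pycard, adaptors of caspase 2 and of the inflammasome, were higher by 0.52 and 0.49 (adjusted p = 0.0249 and 0.0338). Trp53inp1 read 8.43 and 8.40 at D2PM and 8.19, 8.64 and 8.10 at D4PM, against 7.21 and 7.40 in old cells, with all post-mortem arrays above both old ones. None of the 41 genes was called between D4PM and D2PM by limma, and 3 had an unadjusted p under 0.05.

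The calls of Casp4 and Birc3 were kept in all 15 alternatives that gave them a test, leaving out each array included, and that of Bak1 in all but the unmoderated test that the methods name in their general statistics (adjusted p = 0.0550). These alternatives concern the mean of both days against old cells, not each day alone. Of the called genes, Casp4 alone also had a log2 change of at least 1, against 4.15% of all genes. Without old replicate 2, which lay farther than old replicate 1 from every post-mortem array, 1 death gene was called higher and 2 lower, and 858 genes were called in all, in place of 2887. Birc2, Birc6, Bad, Fadd, Mcl1 and Bcl2l1 then lost their call. Without D2PM replicate 1, Bad, Fadd, Mcl1 and Bcl2l1 lost theirs. Mcl1 and Bcl2l1 were not called without D2PM replicate 2, and Bcl2l1 was not called without old replicate 1, D4PM replicate 1 or D4PM replicate 3.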

How the data were processed

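Satellite cells of 7 samples were profiled on arrays. The authors deposited log2 values normalised with RMA (background correction, normalisation between arrays and summary by probe set), and their methods state that probes not expressed and invariant probes were removed. The deposited table held 18675 probe sets, none with an SD below 0.0914, so invariant genes do not enter the shares called. No detection calls come with these values. Of these probe sets 14480 were annotated to a single gene. Differences between the 3 groups were estimated in R 4.3.3 with limma 3.58.1, by a fit of group means with 4 residual degrees of freedom and moderated variances, and p-values were adjusted by the Benjamini-Hochberg method (threshold 0.05). By rule, values on every array are given for up to 14 called members with the largest difference between post-mortem and old cells. The same holds for any called between days and for Bcl2, Bax, Bak1, Mcl1, Casp8, Ripk1, Ripk3 and Mlkl, among other central genes, where analysed. Array values of Casp12, Fas, Tnfrsf1a and Trp53inp1 were added after they were seen. Of the wider list, up to 10 called genes with the largest change are named, and Ikbkb, Map3k7 and Tnfaip3 were added after their values were seen. The members, roles and lists were chosen with earlier results of these data known. The fit was tested on simulated data. Alternatives were other normalisations, filters, probe set rules, roles, tests and variance priors, the replicate number as a block, and leaving out each array. D4PM alone had a replicate 3, so the block gave the same post-mortem differences as leaving out that array, and the 2 alternatives differ only in their p-values. Promoters came from RefSeq (GRCm38.p6). Same-numbered arrays did not deviate together, with correlations of -0.08 to 0.05.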

Additional observations from a re-analysis of the deposited data

How the results depend on the processing

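Over all alternatives, the 9 called death genes kept their direction and their side of the threshold in 109 of 133 refits, lost the call in 24 and reversed in 0. For these genes the post-mortem arrays lay wholly above or wholly below both old arrays, so leaving out an array could not reverse a sign. The filters and the variance prior left the differences themselves unchanged. The number called higher post mortem, 5 as reported, was 3 with a second quantile normalisation, 2 with median centring and 3 with the replicate block. It was also 3 with the 50th percentile filter, which left Fadd and Bcl2l1 untested and kept the calls of Bak1, Bad and Mcl1. A log2 change of at least 1 left 0 higher and 1 lower, with 413 of all genes. It left 0 higher and 2 lower at D2PM, with 369 genes, and 0 higher and 1 lower at D4PM, with 497 genes. At D4PM, 0 were higher with median centring and 1 with the replicate block. The adjusted Student's t-test called 0 higher and 0 lower at D2PM and at D4PM. Over all genes it called 1719 between post-mortem and old cells, 15 at D2PM, 14 at D4PM and 0 between the days (3606, 2028, 2747 and 692 at an unadjusted p under 0.05). Between the days the block called 54 genes in all, and the post-mortem arrays alone 2, against 19. The replicate numbers did not pair the arrays.

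The median of the anti-death genes, -0.24, was -0.11 with no filter, -0.39 with the 50th percentile filter and 0.02 with the mean of probe sets. Changes of sign were confined to genes not called: Cflar was 0.0241 with the mean of probe sets, and Pmaip1 -0.0175 with a second quantile normalisation and -0.0132 with median centring. Without 1 array, signs changed for Pmaip1 (-0.0083 without D4PM replicate 1, -0.0058 without old replicate 1, and without D2PM replicate 2), Bid (without old replicate 1), Bcl2l2 (without old replicate 2), Ripk3 (without D2PM replicate 1) and Bok (without D2PM replicate 2). The cause was not tested.

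Leaving out each array in turn, with a lone array assumed to vary like the other groups, gave 1 to 5 death genes higher and 2 to 5 lower post mortem, 0 to 2 and 1 to 4 at D2PM, 0 to 2 and 2 to 4 at D4PM, and 0 either way between the days. All genes called were 858 to 2814 post mortem, 323 to 2054 at D2PM, 911 to 2512 at D4PM and 0 to 21 between the days. The lowest counts came without old replicate 2, or without D2PM replicate 1 at D2PM and between the days. The pro-death median was 0.10 to 0.12 and the anti-death median -0.3831 to -0.0948. Over the same refits Pmaip1 spanned -0.09 to 0.1685, Bid -0.0598 to 0.1883, Bcl2l2 -0.0256 to 0.221, Ripk3 -0.1749 to 0.0341 and Bok -0.0024 to 0.1209.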
